A study of Homo sapiens with 15 samples.

Results

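CALDOX is a doxorubicin-resistant line that was raised from CAL51, a triple-negative human breast cancer cell line, by long growth in 0.4 µM doxorubicin. The genes that separate the resistant line from its parent were described here from the 3 arrays of untreated CALDOX and the 3 arrays of untreated CAL51. These are 6 of the 15 arrays of the series, chosen by their labels and not by any measured value. The other 9 arrays hold CAL51 after 24 h or 48 h in 0.4 µM doxorubicin and CALDOX after 24 h in 4 µM. Each array measured RNA from a separate culture, but all CALDOX cultures descend from 1 selected line, so the p-values measure the spread between cultures and not between independently raised resistant lines. CALDOX was routinely kept in 0.4 µM doxorubicin. The labels give 3 drug-free passages for the CALDOX cultures that later received 4 µM, and do not say whether the untreated CALDOX cultures were drug-free. Of the 54675 probe sets on the array, 41091 carried exactly 1 gene symbol, and they stood for the 19775 genes described below, each by its brightest probe set.

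Doxorubicin is an anthracycline that slips between DNA bases and traps topoisomerase II on cut DNA, and the resulting double-strand breaks activate the p53 pathway in cells that still have it. It also feeds redox cycling and is reduced to less active alcohols by carbonyl and aldo-keto reductases. Cells selected in the drug are known to survive by pumping it out through ABC transporters, by lowering the drug's target, by detoxifying it, or by changing how they respond to damaged DNA.

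The resistant line differed from its parent at many of the genes tested, mostly by small amounts, and at a short list of genes it went from dim to bright or from bright to dim. In limma's moderated test, 5125 of the 19775 genes (25.9%) differed at an adjusted p under 0.05 and are called different below. Of these, 2807 (14.2%) were higher in CALDOX and 2318 (11.7%) were lower. The difference was under 1.5-fold for 2043 of the higher and 1792 of the lower genes, and the median absolute log2 difference of the called genes was 0.38. At least 2-fold differences were called for 276 genes (1.4%) upward and 228 genes (1.15%) downward, 504 in all (2.55%). At least 4-fold differences numbered 53 upward and 54 downward, and at least 16-fold differences numbered 7 and 9. The arrays of the lines did not overlap for 7298 genes (36.9%). The median log2 difference over all genes was 0.003. The deposited values were already normalized to a shared scale, so this median cannot show whether the lines differed in total RNA.

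**Figure D1:**
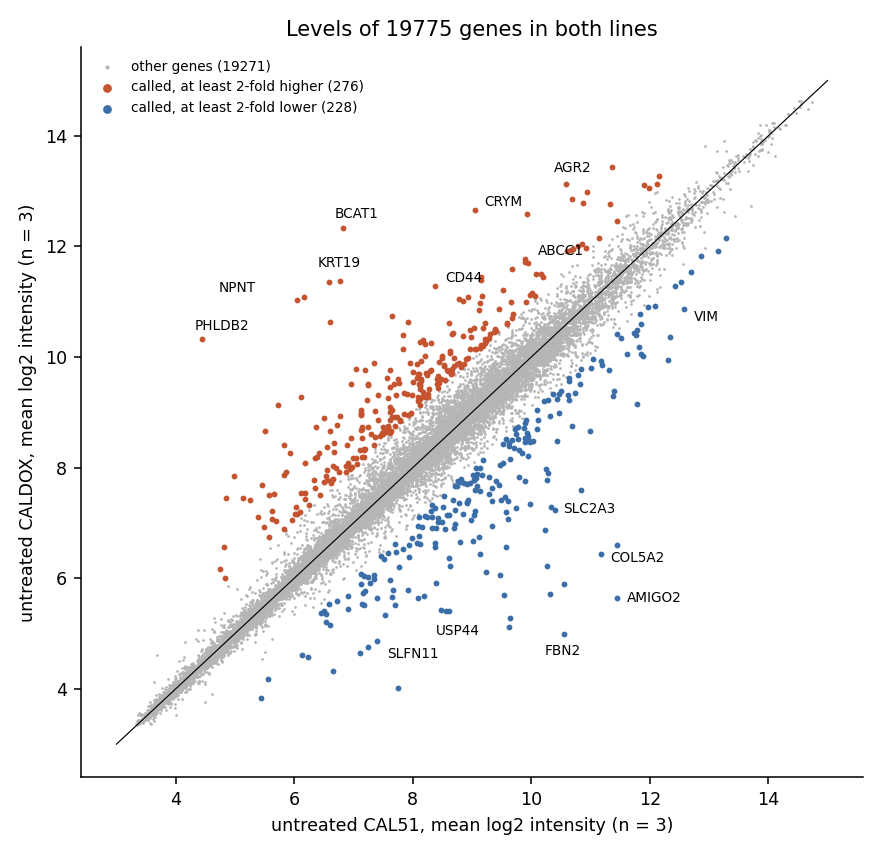
Mean log2 intensity of each of 19775 genes in untreated CAL51 (horizontal axis) and untreated CALDOX (vertical axis), 3 arrays each, 1 point per gene, with the diagonal marking equal levels. The 276 genes that were called and at least 2-fold higher in CALDOX (red) lie above the diagonal and the 228 at least 2-fold lower (blue) lie below it, from PHLDB2 at 58.6-fold higher to AMIGO2 at 56-fold lower.

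The level from which genes moved differed between the directions. The 276 genes that were at least 2-fold higher had a median level of 7.86 in CAL51 and 9.51 in CALDOX, on the log2 intensity scale. The 228 genes that were at least 2-fold lower went from a median of 9.21 in CAL51 to 7.4 in CALDOX. A level under 6 was read in CALDOX for 45 of the lower genes and in CAL51 for 25 of the higher genes, and 16.5% of all genes lay under 6 in CAL51. The deposited table gives no detection calls, and the folds of genes this dim may understate the difference, which was not tested.

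PHLDB2, which encodes a membrane-associated protein that ties microtubules to the cell cortex and to adhesions, had the highest log2 difference. It read 4.43, 4.48 and 4.45 in CAL51 and 10.24, 10.41 and 10.32 in CALDOX, a log2 difference of 5.87 ± 0.09 (limma standard error, adjusted p = 4.2e-16). All 3 CALDOX arrays stood far above all 3 CAL51 arrays, although 3 of the 4 other PHLDB2 probe sets, all dimmer, were not called and the remaining one was higher by 1.82. BCAT1, the cytosolic aminotransferase that starts the breakdown of leucine, isoleucine and valine, read 7.03, 6.79 and 6.63 in CAL51 and 12.22, 12.49 and 12.33 in CALDOX (5.53 ± 0.11, adjusted p = 3.9e-15). Its 3 other probe sets were called the same way at 3.41 to 5.61. NPNT, an extracellular matrix ligand of integrins, followed at 4.99 ± 0.08, with 5.89, 6.12 and 6.11 in CAL51 against 10.93, 11.06 and 11.10 in CALDOX. SGK1, a serum- and glucocorticoid-induced kinase, read 6.19, 5.70 and 6.61 against 10.97, 11.09 and 11.19 (4.92 ± 0.15).

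The next genes encode a keratin, growth factors and adhesion molecules. KRT19, a keratin of simple epithelia, read 6.46, 6.69 and 6.62 in CAL51 and 11.27, 11.41 and 11.36 in CALDOX (4.76 ± 0.07, adjusted p = 4.2e-16). KITLG, the stem cell factor that binds the KIT receptor, read 6.67, 6.77 and 6.90 against 11.43, 11.34 and 11.37 (4.60 ± 0.10), and 2 of its 3 other probe sets were higher by 3.18 and 4.26. For both genes the CALDOX arrays lay close together and clear of CAL51. CDH17, a cadherin of intestinal epithelium, was higher by 4.03 ± 0.09 and CRYM, a thyroid hormone-binding protein, by 3.61 ± 0.07. The small GTPase gene GEM (3.42), the secreted factor EGFL6 (3.16), the neutrophil chemokine CXCL5 (3.15), the Wnt ligand WNT5A (3.09), the hyaluronan receptor CD44 (2.91), the interleukin-6 receptor IL6R (2.87) and the transcription factor SALL1 (2.73) completed the 15 highest log2 differences. After SGK1, CXCL5 was the least even of them in CAL51, at 5.81, 5.05 and 5.68, against 8.52, 8.77 and 8.71 in CALDOX.

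AMIGO2, which encodes a leucine-rich repeat adhesion protein, had the lowest log2 difference. It read 11.60, 11.27 and 11.48 in CAL51 and 5.60, 5.63 and 5.69 in CALDOX (-5.81 ± 0.09, adjusted p = 4.2e-16). FBN2, the microfibril protein fibrillin-2, read 10.54, 10.56 and 10.54 in CAL51 and 5.35, 4.94 and 4.67 in CALDOX (-5.56 ± 0.14). Of its 2 dimmer probe sets, 1 was lower by 0.43 on the log2 scale and 1 was not called. EMP1, a tetraspan membrane protein, read 11.58, 11.31 and 11.44 in CAL51 against 6.68, 6.68 and 6.45 in CALDOX (-4.84 ± 0.10), and all 5 of its other probe sets were called lower. COL5A2, a chain of fibrillar collagen V, read 11.27, 11.09 and 11.16 against 6.37, 6.48 and 6.43 (-4.75 ± 0.11), with its second probe set at -4.71. For these 4 genes the CALDOX arrays sat in the dim part of the scale, so the folds may be larger than printed.

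The rest of the 15 lowest differences also held secreted and membrane proteins. The neuropeptide gene NTS was at -4.65 ± 0.08, and the secreted Wnt antagonists SOST and FRZB were at -4.61 ± 0.11 and -3.85 ± 0.14. USP44, a deubiquitinase of the spindle checkpoint, was at -4.53 ± 0.20, the desaturase SCD5 at -4.35 ± 0.10 and the pentraxin PTX3 at -4.05 ± 0.12. GJA1, the gap junction protein connexin 43, read 7.89, 7.79 and 7.58 in CAL51 and 4.09, 4.00 and 3.97 in CALDOX (-3.73 ± 0.10). CERS6, a ceramide synthase, was at -3.41 ± 0.11, and its 3 other probe sets were lower as well, at -2.26 to -3.53. The chloride channel-like gene CLIC5 (-3.35), the vasodilator peptide gene ADM (-3.25) and the stress-response gene NIBAN1 (-3.21) closed the group.

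**Figure D2:**
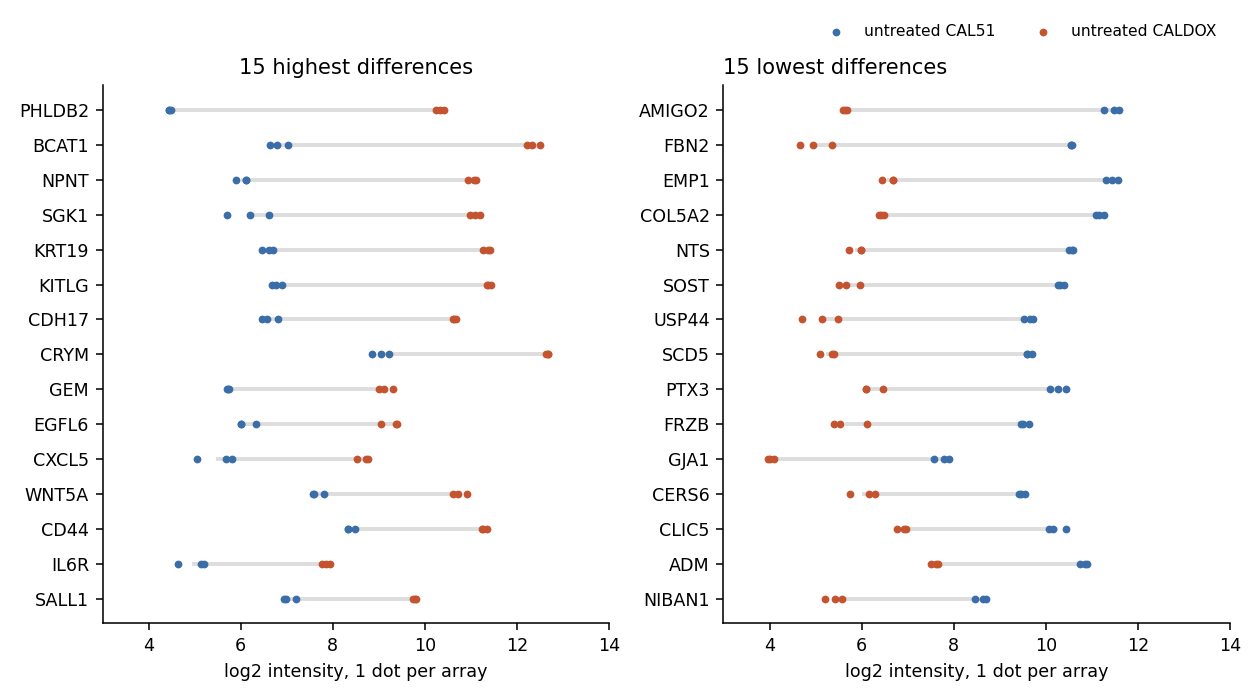
Log2 intensity of each array (dots) for the 15 most raised and the 15 most lowered genes among those that were called, at least 2-fold different and without overlap between the lines, with untreated CAL51 in blue and untreated CALDOX in red, 3 arrays each, and a grey bar joining the means. The spread among the 3 arrays of a line is small against the gap between the lines in every row. CXCL5 and SGK1 in CAL51 and USP44, FRZB and FBN2 in CALDOX are the most spread.

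Most second measurements on the same arrays ran the same way. Of the 504 genes with differences of at least 2-fold, 323 had further probe sets, 673 in all. Among those, 613 had the same sign, 470 were called the same way and 3, in 3 genes, were called the opposite way.

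Among the routes by which the drug leaves or enters cells, 2 efflux-linked genes stood out and P-glycoprotein did not. ABCC1, the multidrug resistance protein MRP1 that exports anthracyclines with glutathione, read 9.97, 9.95 and 9.94 in CAL51 and 11.69, 11.77 and 11.66 in CALDOX, 3.37-fold higher (1.75 ± 0.06, adjusted p = 2.0e-12). Its second probe set was higher by 1.53. MVP, the major vault protein first found in drug-resistant lung cancer cells, read 7.79, 7.50 and 7.46 in CAL51 and 9.14, 9.43 and 9.20 in CALDOX (1.67 ± 0.09, adjusted p = 7.9e-10). ABCB1, which encodes P-glycoprotein, read 5.64, 5.92 and 5.72 against 5.71, 5.57 and 5.68 (-0.11 ± 0.09, adjusted p = 0.46), and the arrays overlapped. ABCG2, the breast cancer resistance protein, read 7.32, 7.22 and 7.15 against 7.21, 7.01 and 7.24 (-0.08 ± 0.09, adjusted p = 0.65). ABCB1 was as dim in every group of the series, between 5.57 and 5.95 on each array, and a difference between cells with so little signal may not be detectable.

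Of the 18 efflux genes tested, 6 were called higher and 2 lower, that is 44.4% against 25.9% of all genes, with a median of 0.1 against 0.0. The lipid transporters ABCA3 (0.86 ± 0.08) and ABCA1 (0.76 ± 0.11) were higher, and ABCC4 (MRP4) was lower at -0.51 ± 0.07. Among 12 uptake transporters, 3 were higher and 2 lower (41.7% called). SLC22A5, the carnitine carrier, read 8.34, 8.27 and 8.20 in CAL51 and 9.40, 9.48 and 9.42 in CALDOX (1.16 ± 0.06, adjusted p = 2.8e-10). SLC29A1, the nucleoside carrier ENT1, went from 10.14, 10.11 and 10.09 to 9.18, 9.36 and 9.29 (-0.84 ± 0.06, adjusted p = 1.7e-08).

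The direct targets of the drug were unequal. TOP2A, the topoisomerase II of dividing cells, read 11.71, 11.51 and 11.65 in CAL51 and 10.60, 10.71 and 10.66 in CALDOX, 1.95-fold lower (-0.97 ± 0.08, adjusted p = 9.1e-08), and both of its other probe sets were lower, at -1.05 and -0.54. TOP2B, the form present in all cells, read 10.86, 10.55 and 10.63 against 10.59, 10.70 and 10.60 (-0.05 ± 0.10, adjusted p = 0.81) and its arrays overlapped. TOP1 was lower by a smaller amount (-0.39 ± 0.05, adjusted p = 1.4e-05). MKI67, a proliferation marker whose RNA, like that of TOP2A, peaks in dividing cells, was lower as well (-0.65 ± 0.06). In RNA from a whole culture, fewer cells of a kind and less RNA in each cell cannot be told apart. Over 12 topoisomerase and adduct repair genes, 3 were called higher and 3 lower (50% called against 25.9% of all genes) with a median of -0.03. The higher ones were TDP2 and MRE11, both at 0.26, and TDP1 at 0.17, and the higher count fell to 1 when CAL51 array 2 or 3 or CALDOX array 2 was left out, and in a fit of the 6 arrays alone.

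Detoxifying enzymes were mostly higher. Of 22 glutathione enzymes, 16 were called higher and 3 lower, a median of 0.31 against 0.0 for all genes and 86.4% called against 25.9%. GSTM3, a mu-class glutathione transferase, read 12.19, 12.15 and 12.14 in CAL51 and 13.26, 13.30 and 13.29 in CALDOX (1.12 ± 0.05, adjusted p = 8.6e-11). MGST3 (0.96 ± 0.07) and the glutathione peroxidase GPX2 (0.90 ± 0.10) were higher too. The microsomal transferase MGST1 was lower (-0.87 ± 0.07). Of 20 NRF2 target and thioredoxin genes, 9 were higher and 2 lower (55% called) with a median of 0.19. PGD, which makes NADPH in the pentose phosphate pathway, was higher by 0.94 ± 0.05 and CAT, catalase, by 0.70 ± 0.06. NQO1, a standard NRF2 readout, was higher by 0.20 and HMOX1, heme oxygenase 1, was lower at -0.41.

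Carbonyl and aldo-keto reductases, some of which turn doxorubicin into its alcohol, went both ways. Among 12 carbonyl and aldo-keto reductases, 7 were called higher and 3 lower (83.3% called against 25.9% of all genes, median 0.24). The higher count fell to 4 without CAL51 array 1, without CAL51 array 3 or without CALDOX array 2. The retinal reductase DHRS3 was higher by 1.42 ± 0.12, CBR3 by 0.50 ± 0.07 and CBR1, the main carbonyl reductase of doxorubicin, by 0.44 ± 0.07. AKR1C1 and AKR1C2, near-identical genes whose probes may cross-hybridise, were at -0.42 and -0.46. AKR1C3 was at 0.48 and lost its call when CAL51 array 1 or 3, or CALDOX array 1 or 2, was left out.

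Of 19 other drug-metabolizing enzymes 3 were called higher, each at least 3.55-fold, and 4 were lower (5 higher with array weights). That is 36.8% called against 25.9% of all genes. CYP4F11, a fatty acid hydroxylase, read 5.74, 5.90 and 5.85 in CAL51 and 7.89, 7.83 and 7.89 in CALDOX (2.04 ± 0.08, adjusted p = 1.1e-11). CYP1A1 read 8.45, 8.26 and 8.24 against 10.20, 10.36 and 10.21 (1.95 ± 0.07, adjusted p = 2.3e-12), and the glucuronosyltransferase UGT1A6 was higher by 1.83 ± 0.13. CYP1A1 and UGT1A6 are textbook targets of the aryl hydrocarbon receptor. Its own gene, AHR, was higher by 1.07 ± 0.09 (adjusted p = 1.3e-07) and the gene of its repressor, AHRR, by 1.59 ± 0.09 (adjusted p = 1.2e-09); both were looked up after these values were seen. CYP1B1, another target of this receptor, was at -0.27. MAOA, monoamine oxidase A, was lower (-1.27 ± 0.08).

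The metallothioneins, small cysteine-rich proteins that bind zinc and copper and scavenge radicals, were higher together. Of 8 tested, 7 were called higher and 0 lower (87.5% called against 25.9%), with a median of 0.71 against 0.0 for all genes. MT1M read 8.12, 7.92 and 7.95 in CAL51 and 9.68, 9.82 and 9.68 in CALDOX (1.73 ± 0.10, adjusted p = 1.1e-09). The other called members were MT1F (0.77), MT1E (0.75), MT1G (0.73), MT2A (0.68), MT1H (0.64) and MT1X (0.58), none of whose CALDOX arrays overlapped CAL51. MT3, the form found mainly in brain, was at 0.12 (adjusted p = 0.49). Their neighbour MT4, which was not on the list, was at 0.30 and lost its call when CAL51 array 2 or 3 or CALDOX array 1 was left out. These genes lie side by side on chromosome 16 and are so alike that probes of one can capture another, so the members are not separate measurements.

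Metallothionein promoters are known for repeated metal response elements, the sites of the zinc-sensing factor MTF1. The RefSeq promoter table (GRCh38.p14) holds 3 of the 8 tested genes, and the 250 bases before each gene's start are shown 5′ to 3′ on the gene's strand because these members moved together. Capitals mark the element's core, TGCACNC or TGCGCNC, on either strand. The windows are chr16:56608334-56608583 (+) for MT2A, chr16:56669564-56669813 (+) for MT1H and chr16:56682220-56682469 (+) for MT1X.
MT2A: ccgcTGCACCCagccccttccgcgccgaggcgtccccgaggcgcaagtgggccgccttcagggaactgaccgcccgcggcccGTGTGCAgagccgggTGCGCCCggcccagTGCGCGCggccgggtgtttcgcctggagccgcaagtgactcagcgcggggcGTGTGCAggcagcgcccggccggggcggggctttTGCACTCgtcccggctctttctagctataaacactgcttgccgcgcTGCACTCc
MT1H: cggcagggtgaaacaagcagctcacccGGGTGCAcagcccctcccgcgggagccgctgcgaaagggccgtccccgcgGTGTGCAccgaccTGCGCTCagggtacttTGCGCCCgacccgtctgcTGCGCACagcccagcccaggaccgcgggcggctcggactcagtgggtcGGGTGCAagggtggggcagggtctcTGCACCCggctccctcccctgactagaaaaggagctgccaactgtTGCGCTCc
MT1X: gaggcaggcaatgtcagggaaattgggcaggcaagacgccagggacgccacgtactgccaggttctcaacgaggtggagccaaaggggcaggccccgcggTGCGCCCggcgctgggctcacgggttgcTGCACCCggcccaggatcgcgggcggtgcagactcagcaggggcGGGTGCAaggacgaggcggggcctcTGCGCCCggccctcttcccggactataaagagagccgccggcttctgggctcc
The core occurred 7 times before MT2A (5 on the gene's strand), 8 times before MT1H (5) and 4 times before MT1X (3). Of 35116 promoters of the table, cut to the same 250 bases, 24.8% held at least 1 core, 0.37% at least 4 and 0.0313% at least 7. A match of these letters is a description of the sequence and not a measured binding site.

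The p53 target genes stood higher in the resistant line as a group, with exceptions. Of 31 tested, 21 were called higher and 2 lower (74.2% called against 25.9% of all genes). Differences of at least 2-fold numbered 6 and 1, and the median was 0.49 against 0.0. CROT, a peroxisomal carnitine acyltransferase, read 8.69, 8.77 and 8.89 in CAL51 and 11.08, 11.06 and 11.02 in CALDOX (2.27 ± 0.06, adjusted p = 2.0e-13). FAS, the death receptor, read 6.43, 7.06 and 6.85 against 8.88, 9.03 and 8.87 (2.15 ± 0.12), and 4 of 4 other probe sets were called higher. TRIM22, a ubiquitin ligase also induced by interferon, was higher by 2.05 ± 0.08. CDKN1A, the gene of the cell-cycle brake p21, read 9.69, 9.61 and 9.64 against values from 10.93 to 11.06 on the 3 CALDOX arrays (1.35 ± 0.07, adjusted p = 3.6e-10).

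MDM2, the ubiquitin ligase through which p53 limits itself, was not called. It read 9.83, 9.66 and 9.65 in CAL51 and 9.51, 9.87 and 9.71 in CALDOX (-0.02 ± 0.09, adjusted p = 0.93), and of its 9 other probe sets 1 was called higher and 1 lower. PLK2, a polo-like kinase, was lower (-1.10 ± 0.09). For reference, CAL51 cells treated for 24 h with 0.4 µM doxorubicin read 11.71, 11.45 and 11.71 for CDKN1A and 10.98, 10.80 and 11.12 for MDM2. So untreated CALDOX lay between untreated and treated CAL51 for CDKN1A and at the untreated level for MDM2.

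Genes of the death machinery split. Of 25 BCL2 family, caspase and IAP genes, 9 were called higher and 3 lower (48% called against 25.9% of all genes), with a median of 0.13. BIK, a killer BH3-only protein, read 7.30, 7.40 and 7.39 in CAL51 and 8.45, 8.56 and 8.65 in CALDOX (1.19 ± 0.07), and BAX was higher by 0.74 ± 0.07. BCL2L11, which encodes the BH3-only protein BIM, read 9.67, 9.63 and 9.60 against 8.44, 8.47 and 8.45 (-1.18 ± 0.09, adjusted p = 2.7e-08). BOK, a BAX-like effector, read 8.58, 8.49 and 8.46 against 7.43, 7.32 and 7.12 (-1.22 ± 0.08, adjusted p = 9.3e-09). The anti-apoptotic genes BCL2 (0.05) and MCL1 (0.09) were not called, and BCL2L1, which encodes BCL-XL, was higher by 0.47.

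Some cell-cycle genes were lower, mostly by small amounts, and repair genes were called no more often than genes in general. Of 29 double-strand break repair and checkpoint genes, 0 were called higher and 7 lower, 24.1% called against 25.9% of all genes, with a median of -0.11 and BLM lowest at -0.40. Of 36 genes of G2 and mitosis, 1 was higher and 15 lower (44.4% called, median -0.16), and of 40 genes of G1/S and DNA replication, 0 were higher and 14 lower (35% called, median -0.15), against 25.9% of all genes. CCNE2, cyclin E2, was the only one of them past 2-fold, at 9.99, 9.70 and 9.63 in CAL51 and 8.44, 8.63 and 8.47 in CALDOX (-1.26 ± 0.11, adjusted p = 2.8e-07). ASPM (-0.60 ± 0.06) and MKI67 (-0.65 ± 0.06) had the lowest values of the mitotic list. Of 17 replication-dependent histone genes, 5 were higher and 0 lower, 29.4% against 25.9% of all genes, with a median of 0.07. H1-2 was the highest (1.02 ± 0.10), and the count fell to 3 when either CAL51 array 1 or 3 or CALDOX array 2 or 3 was left out.

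Other genes of DNA damage tolerance, looked up after their values were seen, showed larger differences. SLFN11, a helicase-like protein that stops replication in cells with damaged DNA, read 7.43, 7.47 and 7.31 in CAL51 and 4.90, 4.83 and 4.89 in CALDOX, 5.77-fold lower (-2.53 ± 0.11, adjusted p = 4.7e-11). MGMT, which removes alkyl groups from guanine, read 8.59, 8.80 and 8.69 against 6.93, 6.72 and 7.07 (-1.78 ± 0.09, adjusted p = 2.8e-10). Neither gene's arrays overlapped, and the SLFN11 level in CALDOX is near the bottom of the scale.

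Targets of the stress factor ATF4 and of the unfolded protein response were lower. Of 28 tested, 20 were called lower and 2 higher (78.6% called against 25.9%), with a median of -0.38 against 0.0, and 4 were at least 2-fold lower. STC2, a secreted stress glycoprotein, read 9.31, 9.58 and 9.71 in CAL51 and 7.99, 8.17 and 8.07 in CALDOX (-1.46 ± 0.10). TRIB3, a pseudokinase that feeds back on ATF4, read 10.77, 10.65 and 10.77 against 9.32, 9.42 and 9.33 (-1.38 ± 0.06, adjusted p = 8.2e-11). ASNS, asparagine synthetase, read 10.98, 11.17 and 11.02 against 9.87, 10.03 and 9.99 (-1.09 ± 0.07), and INHBE was at -1.06 ± 0.13. The higher members were DDIT4 (0.95) and VLDLR (0.66). Heat shock genes were also lower on balance, 8 of 15 lower and 1 higher (60% called, median -0.22), led by CRYAB (-0.95 ± 0.10).

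In energy metabolism both main glucose carriers were much lower. SLC2A3, the glucose transporter GLUT3, read 10.33, 10.34 and 10.36 in CAL51 and 6.76, 7.45 and 7.66 in CALDOX, 8.31-fold lower (-3.06 ± 0.16, adjusted p = 4.8e-10), and its 2 other probe sets were at -3.10 and -4.07. SLC2A1, GLUT1, read 10.94, 11.09 and 10.94 against 8.64, 8.68 and 8.65 (-2.33 ± 0.06, adjusted p = 9.0e-14). Of 30 genes of glycolysis and hypoxia, 15 were called lower and 4 higher (63.3% called against 25.9% of all genes), with a median of -0.15. The hypoxia-induced ADM was at -3.25, but NDRG1, another gene known to respond to hypoxia, was higher by 2.17 ± 0.07, and the enolase ENO2 by 1.23 ± 0.10. GAPDH (0.00) and HIF1A (0.00) were not called. Of 30 subunits of oxidative phosphorylation, 14 were higher and 4 lower (60% called, median 0.17). The higher count fell to 8 without CALDOX array 2 and 9 without CALDOX array 3.

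In amino acid and lipid metabolism the differences were uneven. Among 19 genes of branched-chain and serine metabolism, 7 were higher and 5 lower (63.2% called against 25.9% of all genes). Next to BCAT1 at 5.53, its mitochondrial partner BCAT2 was higher by 0.54, and MTHFD2, of mitochondrial folate metabolism, was lower (-0.64). Of 19 genes of cholesterol and fatty acid synthesis, 8 were lower and 2 higher (52.6% called, median -0.11). Ribosome biogenesis genes were lower in 10 of 19 and higher in 1 (57.9% called, median -0.21). Of 25 lysosome and autophagy genes, 10 were higher and 4 lower (56% called), led by LAMP2 (0.95 ± 0.07), a lysosomal membrane protein.

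**Figure D3:**
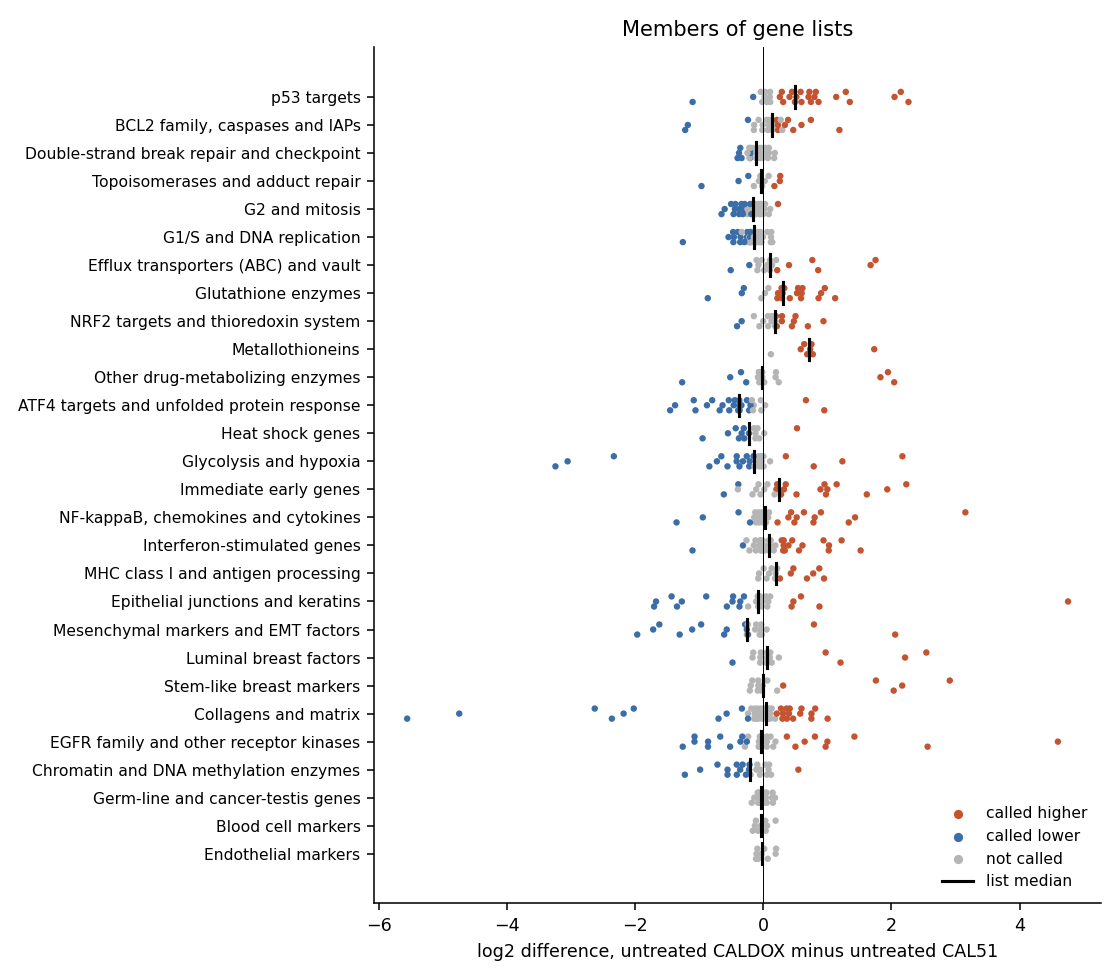
Log2 difference of untreated CALDOX minus untreated CAL51 for each tested member (dot) of 28 gene lists, red where called higher, blue where called lower, grey where not called, with a black bar at the list median. Metallothioneins, p53 targets and glutathione enzymes lie mostly to the right of 0 (medians 0.71, 0.49 and 0.31), ATF4 and unfolded protein response genes mostly to the left (median -0.38), and cancer-testis, blood and endothelial genes cluster at 0.

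Signalling genes of inflammation and early growth response were partly higher. Of 30 NF-kappaB, chemokine and cytokine genes, 12 were called higher and 4 lower (53.3% called against 25.9% of all genes), with a median of 0.03. The lower count was 2 when all probe sets of a gene were averaged. CXCL5 (3.15 ± 0.22), CXCL3 (1.43 ± 0.12) and CCL20 (1.33 ± 0.12), which attract white blood cells, and IL6 (0.90 ± 0.06) were higher. ICAM1, an adhesion receptor for white blood cells, read 9.82, 10.02 and 9.97 in CAL51 and 8.60, 8.60 and 8.54 in CALDOX (-1.35 ± 0.07, adjusted p = 6.1e-10), and IL18 was at -0.94. Of 24 immediate early genes, 14 were higher and 2 lower (66.7% called) with a median of 0.25. FOS, part of the AP-1 transcription factor, read 9.20, 9.14 and 9.13 against 11.34, 11.43 and 11.40 (2.23 ± 0.05, adjusted p = 2.5e-14). The ERK phosphatase gene DUSP5 was higher by 1.93 ± 0.06, FOSL2 by 1.62 ± 0.09 and FOSB by 1.14, while JUN (-0.04) and ATF3 (0.01) were not called.

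Interferon-stimulated genes moved only in part. Of 37 tested, 14 were called higher and 2 lower (43.2% called against 25.9% of all genes), with a median of 0.09. The antiviral membrane proteins IFITM1 (1.52 ± 0.08), IFITM2 (1.22 ± 0.06) and IFITM3 (1.02 ± 0.06), whose sequences are close enough for probes to be shared, and PARP9 (1.03 ± 0.06) were higher. ISG15 was at -0.32, and the GTPase GBP1 was lower (-1.11 ± 0.11). Of 16 MHC class I and antigen-processing genes, 7 were higher and 0 lower (43.8% called, median 0.21). PSME1, an activator of the proteasome, was higher by 0.95 ± 0.06, PSMB8 of the immunoproteasome by 0.87 ± 0.11 and the peptide transporter subunits TAP2 and TAP1 by 0.78 and 0.68.

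CALDOX had less RNA of several junction and of several mesenchymal genes at once. Of 29 epithelial junction and keratin genes, 12 were called lower and 5 higher (58.6% called against 25.9% of all genes), with a median of -0.09. CDH1, the adherens junction protein E-cadherin, read 7.27, 7.35 and 7.39 in CAL51 and 5.98, 5.84 and 6.15 in CALDOX (-1.35 ± 0.15, adjusted p = 4.2e-06). The desmosomal cadherin DSG2 read 9.44, 9.30 and 9.26 against 7.37, 7.85 and 7.67 (-1.71 ± 0.10), and the tight junction protein OCLN read 9.54, 9.51 and 9.39 against 8.07, 8.02 and 8.05 (-1.43 ± 0.08). KRT8 (-0.47) and KRT18 (-0.48), the keratins that pair in simple epithelia, were slightly lower, whereas KRT19 was higher by 4.76.

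Of 22 mesenchymal markers and transition factors, 11 were called lower and 2 higher (59.1% called against 25.9% of all genes), with a median of -0.25. VIM, the intermediate filament vimentin, read 12.46, 12.72 and 12.57 in CAL51 and 10.80, 10.96 and 10.83 in CALDOX (-1.72 ± 0.07, adjusted p = 9.2e-12). The smooth muscle genes TAGLN (-1.97 ± 0.06), MYL9 (-1.62 ± 0.06) and TPM2 (-1.31 ± 0.09) were lower. FN1, fibronectin, went the other way, from 11.44, 11.28 and 11.40 to 13.40, 13.46 and 13.45 (2.06 ± 0.06, adjusted p = 1.5e-13), and 6 of 6 other probe sets were called higher. The transition factors SNAI2 (-0.13) and ZEB2 (0.05) were not called, and TWIST1 (-0.57) was called lower.

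A few markers of luminal and stem-like breast cells were higher, while the lists as a whole stayed near the background. Of 18 luminal factors, 4 were called higher and 1 lower, 27.8% against 25.9% of all genes, with a median of 0.05. AGR2, a secretory pathway disulfide isomerase, read 10.63, 10.57 and 10.53 in CAL51 and 13.12, 13.15 and 13.10 in CALDOX (2.54 ± 0.05, adjusted p = 4.1e-15). Its relative AGR3 was higher by 2.21 ± 0.13, the pioneer factor FOXA1 by 1.20 ± 0.08 and the receptor ERBB3 by 0.97 ± 0.06. The receptors that define triple-negative disease were not called: ESR1 (-0.05, adjusted p = 0.78), PGR (0.04, adjusted p = 0.81) and ERBB2 (0.05, adjusted p = 0.6). Of 15 stem-like markers, 5 were higher and 0 lower, 33.3% against 25.9%, with a median of -0.01. CD44 read 8.48, 8.32 and 8.33 against 11.25, 11.34 and 11.27 (2.91 ± 0.09), and the aldehyde dehydrogenase ALDH1A1 read 10.98, 10.88 and 10.97 against 12.97, 12.98 and 12.99 (2.03 ± 0.06). CD24, whose absence usually marks the stem-like population, read 10.74, 10.71 and 10.63 against 12.86, 12.83 and 12.90 (2.17 ± 0.06, adjusted p = 8.3e-14). The laminin receptor subunit ITGA6 was higher by 1.76 ± 0.12.

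Matrix genes held some of the lowest values. Of 49 collagen and matrix genes, 15 were called higher and 10 lower (51% called against 25.9% of all genes), with a median of 0.04. Of the lower 6, but of the higher only 1, were at least 2-fold. Beside FBN2 and COL5A2, the lower ones were the adhesive glycoprotein THBS1 (-2.63 ± 0.10), collagen I chain COL1A2 (-2.36 ± 0.05), the collagen cross-linking enzyme LOX (-2.18 ± 0.09) and COL12A1 (-2.02). COL1A2 read 12.32, 12.33 and 12.27 in CAL51 and 9.91, 10.00 and 9.91 in CALDOX. COL1A1, the other chain of collagen I, was at -0.09 and not called. TIMP1, an inhibitor of matrix proteases, was higher by 1.00 ± 0.07.

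Growth factors and their receptors did not shift together. Of 35 receptor kinase genes, ligands and binding proteins, 9 were higher and 10 lower (54.3% called against 25.9% of all genes). The ligand PDGFA read 6.98, 7.04 and 6.84 in CAL51 and 9.49, 9.55 and 9.52 in CALDOX (2.56 ± 0.10, adjusted p = 7.9e-12), and the receptor PDGFRB read 8.92, 9.02 and 8.98 against 7.65, 7.63 and 7.87 (-1.26 ± 0.09). KITLG was higher by 4.60 while its receptor gene KIT was at 0.05 and not called. IGFBP3, which binds insulin-like growth factors, was higher by 1.42 ± 0.06. EGFR read 8.97, 9.73 and 9.41 against 9.02, 8.89 and 9.35 (-0.29 ± 0.30, adjusted p = 0.59), with arrays that overlapped, and 3 of its 8 other probe sets were called lower, at -1.04, -0.86 and -0.29. Among 27 Wnt pathway genes 4 were higher and 2 lower (22.2% called), which is below the share of all genes. Among 28 TGF-beta and BMP genes the counts were 5 and 5 (35.7% called, 8 lower with array weights). Of 16 YAP pathway genes 7 were lower and 2 higher (56.2% called), and the lower count fell to 4 without CAL51 array 1 or CALDOX array 1.

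Developmental and chromatin genes showed a few strong single differences. The axon guidance genes UNC5C (-2.38 ± 0.09) and SLIT2 (-1.74 ± 0.07) and the protocadherin PCDH7 (-2.13 ± 0.12) were lower. Of 36 neural adhesion genes, 6 were higher and 5 lower in all, or 3 higher when all probe sets of a gene were averaged. The share called, 30.6%, was near the 25.9% of all genes. Of 48 homeobox and developmental factors, 11 were higher and 10 lower (43.8% called). HOXB7 (1.13 ± 0.10) and HOXC6 (1.04 ± 0.08) were the highest, and the nuclear receptor NR2F1 (-1.88 ± 0.12) and FOXD1 (-1.56 ± 0.14) the lowest. Of 23 chromatin and DNA methylation enzymes, 12 were lower and 1 higher (56.5% called, median -0.22). TET1, which oxidizes methylated cytosine, read 8.13, 8.16 and 8.16 in CAL51 and 6.78, 6.93 and 7.06 in CALDOX (-1.23 ± 0.09, adjusted p = 3.7e-08). Of 20 cancer-testis genes, which are often silenced by methylation, 0 were called in either direction.

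Neighbouring genes differed together in several places. For this the 19690 genes with a place in the RefSeq table were ordered along each chromosome and read in windows of 11, and the median difference of a window lay between -0.17 and 0.25 for all but the lowest and highest 1% of windows. The lowest median, -0.92, belonged to XPOT to TMBIM4 on chromosome 12, where 8 of 11 genes were called lower and 0 higher. It holds the innate immune kinase TBK1 (-1.15), RASSF3 (-1.36), LEMD3 (-0.90), MSRB3 (-1.94) and HMGA2 (-1.14), a chromatin protein that read 13.39, 13.22 and 13.26 in CAL51 and 12.14, 12.20 and 12.11 in CALDOX. Drawn out to CCT2 after the values were seen, the stretch held 31 genes, of which 15 were lower and 0 higher. That is 48.4% called against 25.9% of all genes, and the median over the stretch was -0.12. Among the lower genes were CAND1 (-0.84), DYRK2 (-1.55), NUP107 (-0.89), YEATS4 (-0.97) and CCT2 (-1.05). MDM2 lies inside this stretch. Shortly after it, CNOT2 (0.80) and KCNMB4 (2.55) were higher.

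**Figure D4:**
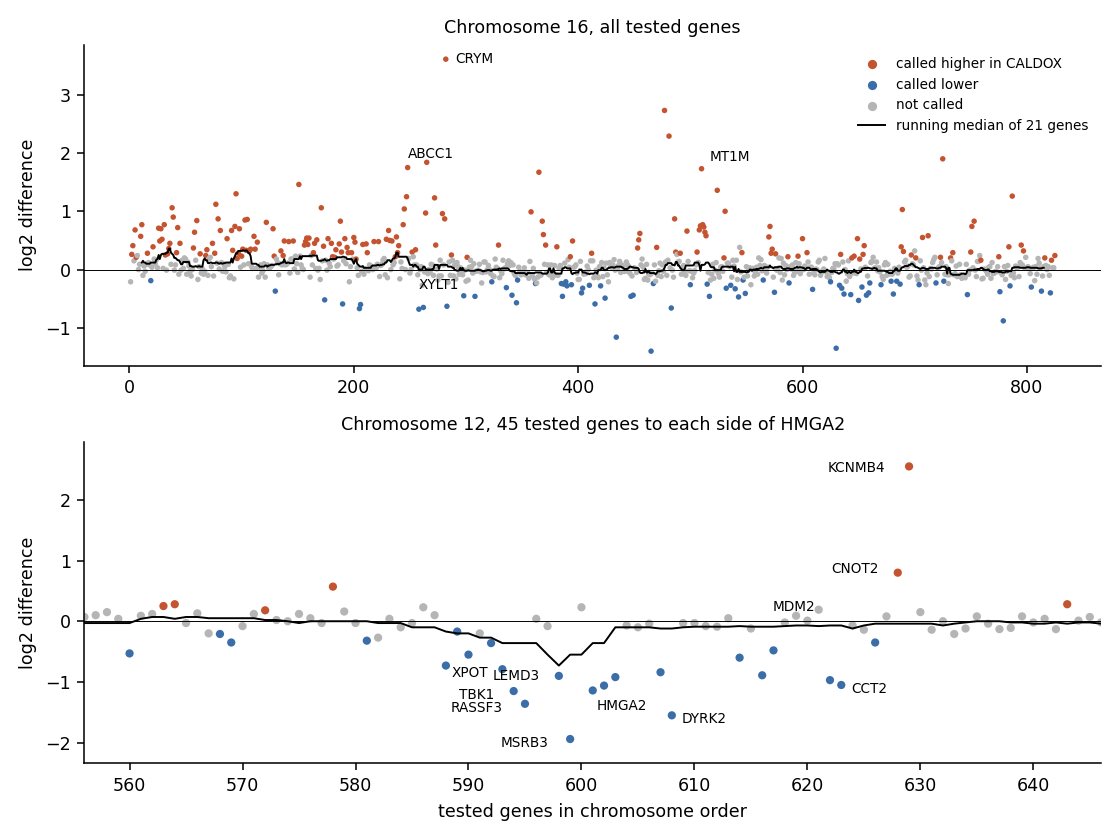
Log2 difference of untreated CALDOX minus untreated CAL51 for tested genes in their order along chromosome 16 (top, 825 genes) and along the part of chromosome 12 within 45 tested genes of HMGA2 (bottom), red where called higher, blue where called lower, grey where not called, with the running median of 21 genes as a line. On chromosome 16 red points outnumber blue ones up to XYLT1, 102 against 6, and on chromosome 12 the 15 blue points from XPOT to CCT2 lie between -0.48 and -1.94 with no red one among them.

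On chromosome 16, 184 of 825 genes were higher and 74 lower (median 0.039), and on chromosome 19, 231 and 111 of 1320 (median 0.015). Over all genes, 14.2% were higher and 11.7% lower, 25.9% called. On chromosome 16 the excess lay before XYLT1, a boundary chosen after the values were seen. The 250 genes before it counted 102 higher and 6 lower, 43.2% called, with a median of 0.15. The 575 genes from XYLT1 on counted 82 higher and 68 lower, 26.1% called, with a median of 0.01. ABCC1 lies near the end of the first group. In a list of 19 genes around it, 9 were higher and 1 lower (52.6% called, median 0.19). The higher ones included its neighbours CEP20 (1.25 ± 0.10) and NDE1 (1.04 ± 0.06) and, farther along, GPRC5B (1.84 ± 0.06). ABCC1 is number 248 in the order of tested genes. Of the genes before it, leaving out the 10 nearest, 95 were called higher, and 5 of them were at least 2-fold higher. These 95 genes had a highest value of 1.46 and a median of 0.45. That median covers only genes called higher, so its sign was set by the call. Over all called genes the median absolute log2 difference was 0.38. The same reading around ABCB1 gave 3 higher and 4 lower of 24 genes (median -0.08). The share called, 29.2%, was near that of all genes. The lower count was 2 after centring, or without CAL51 array 1, CAL51 array 2 or CALDOX array 3. The higher ones included CROT (2.27) and STEAP1 (1.81) and the lower ones RUNDC3B (-1.65 ± 0.09).

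The highest windows held gene families and a short stretch of chromosome 6. POPDC3 to MTRES1 had a median of 0.68 with 6 of 11 genes higher, namely ATG5 (0.75), CRYBG1 (1.86), RTN4IP1 (0.69), QRSL1 (0.68), CD24 (2.17) and MTRES1 (0.86). NUDT21 to MT1H, the metallothionein cluster, had a median of 0.64, although its non-metallothionein members NUDT21, OGFOD1 and BBS2 were at -0.06, -0.02 and 0.08. ZNF137P to ZNF415 on chromosome 19 had a median of 0.62 with 8 genes higher, among them ZNF468 (1.83) and ZNF600 (1.48). AGR2 (2.54), AGR3 (2.21) and AHR (1.07) are neighbours on chromosome 7, where the window from LRRC72 to SNX13 had a median of 0.43 with 6 genes higher and 0 lower. In the third and second lowest windows, both on chromosome 6, ELOVL2 to EDN1 and SNAP91 to SYNCRIP, 6 genes each were lower, with medians of -0.30 and -0.36.

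Looking further along these families was a choice made after the values were seen. Of 208 genes named ZNF plus a number on chromosome 19, which encode zinc finger proteins, 68 were higher and 2 lower (median 0.12). Of 217 such genes on other chromosomes, 35 were higher and 18 lower. There the higher count fell to 20 without CALDOX array 2 and 21 without CAL51 array 3. The shares called were 33.7% on chromosome 19 and 24.4% elsewhere, against 25.9% of all genes. Of the 15 protocadherin beta genes on chromosome 5, which encode cell-surface adhesion proteins, 10 were higher and 0 lower (66.7% called, median 0.45). PCDHB7 was the highest of them (2.05 ± 0.12). Both families are made of near-identical neighbours whose probes may capture one another, so their members are not independent. Expression alone does not give copy number, and DNA was not measured in these arrays.

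Most of the large differences were found again when both lines were under drug, in arrays that share none with the comparison above but are fitted with the same estimate of spread. There the lines had different doses, 4 µM for CALDOX and 0.4 µM for CAL51, both for 24 h, so the values stand side by side and the change between the settings was not tested. In limma, 5381 genes (27.2%) were called, 2784 higher (14.1%) and 2597 lower (13.1%). At least 2-fold differences were called for 482 genes (2.44%), with 237 higher (1.2%) and 245 lower (1.24%), and the arrays did not overlap for 7853 genes (39.7%). Of the 276 genes at least 2-fold higher in untreated CALDOX, 275 were called higher again and 189 were again at least 2-fold. Of the 228 at least 2-fold lower, 225 were called lower again, 194 at least 2-fold, and 1, ASNS, was called higher. PHLDB2 was at 5.36 ± 0.09, AMIGO2 at -5.19 ± 0.09, ABCC1 at 1.69 ± 0.06 and TOP2A at -1.18 ± 0.08.

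**Figure D5:**
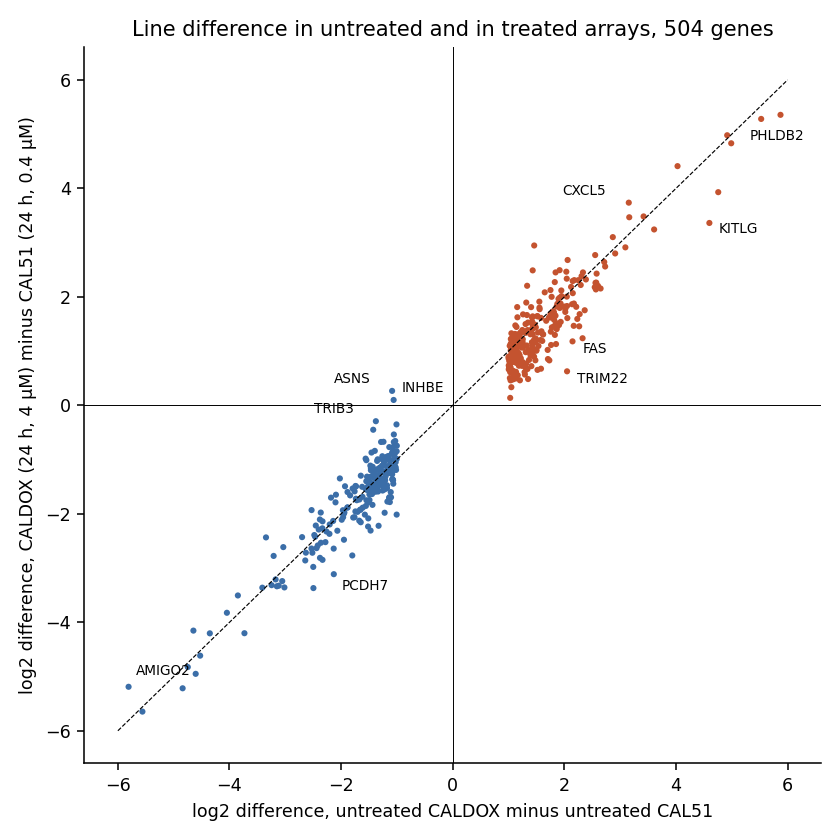
Log2 difference between the lines in untreated arrays (horizontal axis) and in arrays of drug-treated cells, CALDOX at 4 µM and CAL51 at 0.4 µM for 24 h (vertical axis), for the 504 genes called and at least 2-fold different in untreated cells, red where higher and blue where lower in CALDOX, with a dashed line of equal values. Nearly all points keep their side of 0; ASNS is at -1.09 untreated and 0.27 treated.

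Some differences were smaller or absent between the treated lines. FAS was at 1.18 ± 0.12, TRIM22 at 0.63 ± 0.08 and CDKN1A at 0.48 ± 0.07, against 2.15, 2.05 and 1.35 without drug. Over the p53 targets 15 were higher and 5 lower (median 0.19), and MDM2 was lower in treated CALDOX (-0.64 ± 0.09, adjusted p = 6.7e-05). Over the ATF4 and unfolded protein response genes, 7 were higher and 3 lower (median 0.07), with TRIB3 at -0.29, INHBE at 0.10 and ATF4 itself at 0.45, against -1.38, -1.06 and -0.26 without drug. Metallothioneins were still higher in 7 of 8, with a median of 0.38, and MT1M was at 0.83 ± 0.10. ABCG2 was lower in treated CALDOX (-0.96 ± 0.09, adjusted p = 8.5e-07), while ABCB1 was at 0.02 (adjusted p = 0.93). In the other direction, mitotic genes counted 0 higher and 30 lower of 36 (median -0.40), against 1 and 15 without drug.

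Array facts bear on all of these results. Arrays of a group correlated at 0.9929 to 0.9978 over all probe sets, and untreated CALDOX with untreated CAL51 at 0.9827 to 0.984. The first principal component, 60.9% of the variance, separated the lines, and no array stood apart from its group. The breast line markers KRT8, KRT18, VIM, CD44 and EGFR were all read well above the bottom of the scale in both lines. Blood cell markers were called in 0 of 9 genes and endothelial markers in 0 of 9, and the mean level of the lists ranged from 6.89 to 6.97 and 6.96 to 7.08 in CAL51 and from 6.85 to 6.96 and 6.97 to 7.09 in CALDOX. The endothelial gene PECAM1 was not called by its brightest probe set (0.19 ± 0.08, adjusted p = 0.1), but 3 of its 4 other probe sets were higher by 2.07 to 2.51. Of 10 fibroblast markers, 2 were lower, 20% called against 25.9% of all genes. These were PDGFRB (-1.26) and COL3A1 (-0.57), while DCN (0.06), LUM (0.08) and FAP (-0.03) were not called. The range of the fibroblast list was 7.11 to 7.22 in CAL51 and 6.91 to 7.0 in CALDOX, and its part in the lower matrix genes was not tested.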

How the data were processed

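RNA of each culture was extracted with RNeasy, turned into biotin-labelled cRNA and hybridised to an Affymetrix human genome array, per the labels' protocols. The authors deposited normalized log2 values. The submitters' processing notes name RMA for this step without a version. The log base is not stated and was taken as 2 from the range of 3.083 to 14.762. No scanner files were used, so the background correction could not be varied, and no depth applies; 3 arrays a group limit the precision. Probe sets were named from GEO's platform annotation. Of 54675 probe sets, 62 were controls, 41097 had 1 symbol, 1801 several and 11777 none, and 41037 of the 41091 usable gene IDs matched RefSeq (GRCh38.p14), which also gave gene order. A gene was read at its brightest probe set over the 15 arrays. limma 3.58.1 in R 4.3.3 was fitted to the 5 groups of all 15 arrays (10 residual degrees of freedom), with empirical Bayes moderation and Benjamini-Hochberg adjustment over 19775 genes; errors are limma standard errors with n = 3 arrays a group unless stated. Called means an adjusted p under 0.05. Probe set p-values were adjusted over probe sets. The script was tested on simulated data.

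Named were the 15 genes at each end among those called, at least 2-fold different and without overlap, the 4 most different members of each of 46 lists, and the 3 most extreme windows of 11 neighbours at each end. The comparison, lists and windows were chosen with earlier results of these data known; AHR, AHRR, SLFN11, MGMT, the zinc finger and protocadherin families, the boundaries of stretches, and list members beyond the 4 were named after their values were seen. Same-numbered replicates did not deviate together (correlations of -0.288, -0.131 and 0.018), so the fit has no block. List members not measured by a single-symbol probe set were not analysed here. Alternatives were a fit of the 6 arrays, repeated quantile normalization, median centring, a filter on dim genes, other probe set rules, trend and robust moderation, array weights, a replicate block and leaving out each array.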

Additional observations from a re-analysis of the deposited data

Results flagged for a closer look

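The arrays of the lines were separated in opposite directions without and with drug for 160 of the 19775 genes. Separation in either direction was common, at 36.9% of all genes without drug and 39.7% with it. Whether 160 is more than such separation alone would give was not tested. Of these, 23 were called in both settings, 12 of them lower without drug and higher with it, and 11 the other way. The genes named in the text are given here; the difference between the settings was not tested, and the doses differed. ASNS, asparagine synthetase, was lower in untreated CALDOX (-1.09 ± 0.07, adjusted p = 3.3e-09) and higher in treated CALDOX (0.27 ± 0.07, adjusted p = 0.0063). In the treated arrays it read 9.42, 9.57 and 9.44 in CAL51 and 9.70, 9.72 and 9.81 in CALDOX. CBR3, a carbonyl reductase, was higher in untreated CALDOX (0.50 ± 0.07, adjusted p = 2.0e-05) and lower in treated CALDOX (-0.26 ± 0.07, adjusted p = 0.007), where it read 7.80, 7.94 and 7.79 against 8.10, 8.08 and 8.12 in CAL51. ATF4, the stress transcription factor, was at -0.26 ± 0.06 without drug and 0.45 with drug. NUPR1, a stress-induced nuclear protein, was at -0.44 and 0.50, and PCK2, the mitochondrial PEP carboxykinase, at -0.50 and 0.32; both were named after their values were seen. EMCN, an endothelial sialomucin, was at -0.11 (adjusted p = 0.22) without drug and 0.24 (adjusted p = 0.0085) with drug.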

How the results depend on the processing

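Of 270 named genes, 223 were called; all 223 kept their direction under the 14 alternatives that tested them and 207 also kept their call. Some lists with near-equal counts in both directions changed, as given with them above, so which direction had more calls is not firm for those. The median over all genes stayed between -0.01 and 0.02. The 5125 genes called became 4778 with the 6 arrays alone, 5549 with repeated quantile normalization, 4783 after centring, 5005 with the replicate number as a block (2760 higher, 2245 lower) and 6492 with array weights. The block changed the call of none of the named genes, and the replicate numbers do not pair the cultures. Testing each probe set on its own, which counts more features, called 9398 probe sets (4653 upward and 4745 downward, with 466 and 433 at least 2-fold), and in treated arrays 10162 (4563 and 5599, with 425 and 490 at least 2-fold). With array weights the higher genes of the treated arrays numbered 4267; the cause was not tested, and the estimate of the weights stopped before it reached its tolerance. Leaving out 1 array gave 4341 to 4639 called genes without drug (2335 to 2660 higher, 1863 to 2179 lower, 253 to 301 and 218 to 239 at least 2-fold) and 4419 to 5537 with drug (2270 to 2736 higher, 2112 to 2801 lower, 224 to 249 and 235 to 267 at least 2-fold). The limits are 1 resistant line, an unstated drug-free interval for untreated CALDOX, no detection calls for dim genes and probes shared among near-identical genes.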
